A study of Mus musculus and Sus scrofa with 30 samples.

Results

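The expression of 54 genes of the cell division cycle was measured at a single time, day 5, in mouse 3T3-L1 and porcine DFAT cells under adipogenic induction. The genes were a list chosen with earlier results of these data known, and were matched by name. Of these, 22 act in DNA replication, 5 regulate the G1 to S transition and 24 act in mitosis. The last 3 encode inhibitors of cyclin-dependent kinases (CDK). All 54 were found among 24843 genes of the mouse table and 49 among 34307 genes of the pig table. The pig genes MCM5, RRM2, CCNE1, AURKA and MKI67 were not analysed here, as no row carried those names. Every matched gene passed the filter on low values, a mean of at least 10 normalized counts over the 15 libraries of a system, among 15723 mouse and 14819 pig genes that did. 3T3-L1 is an established line of mouse embryonic fibroblasts that can turn into fat cells. DFAT cells are pig fat cells that had lost their differentiated state in culture. Each system had 5 groups of 3 libraries collected on day 5: DMSO as the vehicle, dicoumarol, magnolol, both compounds together (the combination, D+M in the labels), and rosiglitazone. All 3T3-L1 groups shared an induction mix of insulin at 0.75 µg/mL, dexamethasone at 75 nM and the phosphodiesterase inhibitor IBMX at 37.5 µM in 10% serum. All DFAT groups shared dexamethasone at 0.5 µM, IBMX at 12.5 µM, biotin and pantothenate in 2% serum. The sources used here give neither compound doses nor whether replicates were separate cultures, so p-values measure the spread between these libraries, which may be technical. Rosiglitazone is an agonist of PPARG, the master transcription factor of fat cells, magnolol is a compound of magnolia bark, and dicoumarol is a vitamin K antagonist.

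A cell that divides copies its DNA in S phase and separates the copies in mitosis. Cyclin D and then cyclin E, with their CDK partners, inactivate the retinoblastoma family of pocket proteins. This frees E2F factors, which switch on genes for the MCM helicase, nucleotide supply and cyclin E itself. Later, genes for cyclin B, CDK1 and the spindle rise together, through promoters with a CHR (cell cycle genes homology region) element and CCAAT boxes. Inhibitors such as p21 (Cdkn1a), p27 (Cdkn1b) and p18 (Cdkn2c) hold CDKs back. In 3T3-L1 cultures the hormone mix is known to set off a short burst of division, called mitotic clonal expansion, before the cells leave the cycle and fill with lipid.

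The promoters of replication and mitosis genes held 3 known cell cycle motifs at different shares, a difference that was not tested. RefSeq promoters of assembly GRCm38.p6, 250 bases before to 50 after the annotated start, were found for 43 of the 54 mouse genes (49 promoters). An E2F motif (TTCCCGC or TTCGCGC or TTGCCGC or TTGGCGC, either strand) was present in 14 of 20 replication promoters (70%) and 3 of 21 mitosis promoters (14.3%), against 9.57% of all 32851 promoters of the same length. The CHR (TTTGAA or TTCGAA, either strand) was present in 4 of 20 replication promoters (20%) and 14 of 21 mitosis promoters (66.7%), against 19.2% of all. CCAAT on either strand was in 75% of replication, 85.7% of mitosis and 37.4% of all promoters. Below, 4 promoters show examples of each motif, each from 5′ to 3′ on its gene's strand, with E2F, CHR and CCAAT matches in capitals. Mcm5 (chr8:75109259-75109558, plus strand) encodes a helicase subunit and Rrm2 (chr12:24708004-24708303, plus strand) a subunit of ribonucleotide reductase. Cdk1 (chr10:69352863-69353162, minus strand) encodes the mitotic kinase and Ccnb2 (chr9:70421505-70421804, minus strand) a cyclin that activates it. Mcm5 held 3 E2F matches, some sharing bases, 3 CCAAT and 0 CHR matches. Rrm2 held 1 E2F and 1 CCAAT match and 0 for CHR. Cdk1 held all 3 kinds, with 2 E2F, 2 CHR and 3 CCAAT matches. Ccnb2 held 2 CHR and 3 CCAAT matches with 0 for E2F. A match is a description of letters and was not linked to binding.
Mcm5: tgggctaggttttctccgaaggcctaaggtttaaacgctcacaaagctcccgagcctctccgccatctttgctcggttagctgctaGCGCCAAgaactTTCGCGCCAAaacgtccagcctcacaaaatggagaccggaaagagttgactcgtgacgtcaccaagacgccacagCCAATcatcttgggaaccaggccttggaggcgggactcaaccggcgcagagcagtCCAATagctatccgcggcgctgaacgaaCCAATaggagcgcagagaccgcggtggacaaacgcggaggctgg
Rrm2: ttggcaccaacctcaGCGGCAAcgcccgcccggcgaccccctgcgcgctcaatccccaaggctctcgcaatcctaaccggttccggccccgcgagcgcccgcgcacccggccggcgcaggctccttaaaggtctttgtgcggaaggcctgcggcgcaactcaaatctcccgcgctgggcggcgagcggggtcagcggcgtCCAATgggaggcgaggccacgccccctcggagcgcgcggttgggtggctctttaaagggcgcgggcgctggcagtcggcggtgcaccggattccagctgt
Cdk1: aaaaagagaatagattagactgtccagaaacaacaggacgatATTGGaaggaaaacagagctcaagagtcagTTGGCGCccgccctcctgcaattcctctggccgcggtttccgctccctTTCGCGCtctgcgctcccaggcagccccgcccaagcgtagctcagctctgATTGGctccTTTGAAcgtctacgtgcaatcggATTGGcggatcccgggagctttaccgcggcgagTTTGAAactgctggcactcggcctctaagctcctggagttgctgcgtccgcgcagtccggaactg
Ccnb2: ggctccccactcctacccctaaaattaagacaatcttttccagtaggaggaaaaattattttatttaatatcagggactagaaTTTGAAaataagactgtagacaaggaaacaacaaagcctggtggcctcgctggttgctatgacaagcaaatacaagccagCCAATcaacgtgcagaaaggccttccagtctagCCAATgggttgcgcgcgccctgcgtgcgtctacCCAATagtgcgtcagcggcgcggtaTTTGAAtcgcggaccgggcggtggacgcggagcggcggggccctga

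The values are gene counts divided by DESeq2 size factors, called normalized counts here. The 3T3-L1 libraries held an estimated 22.8 to 30.7 M reads and the DFAT libraries 44.8 to 70.5 M. The 2 tables were normalized separately, so no test was made between the systems. Markers of 8 fat cell genes, which include Fabp4 and Plin1, moved with the groups. In 3T3-L1 their summed level was 44205 to 62112 normalized counts with vehicle, 62262.5 to 96533 in the dicoumarol group, 89035 to 132973 under magnolol, 114981 to 180986 under the combination and 321407 to 565835 under rosiglitazone. With dicoumarol 0 of these 8 genes were called (limma), where 0% of all genes were called. The largest of them by median over the 15 libraries were Lpl (73586.5) and Fabp4 (17420). The summed level of 8 fibroblast and preadipocyte genes was 238891 to 263495 with vehicle and 139174 to 180879 with rosiglitazone. The largest genes of that sum by median were Col3a1 (86145) and Col1a1 (82034). In DFAT the fat cell sum was 18489 to 21420 with vehicle and 76446 to 83524 with rosiglitazone. There the fibroblast sum, over the genes of that list found in the pig table, was 1651690 to 1800600 with vehicle, 2269940 to 2370630 under dicoumarol and 2582080 to 2954280 under magnolol. It was 2558860 to 3038380 under the combination and 1264300 to 1403450 under rosiglitazone. Most of this sum was COL1A1 and COL3A1, with medians of 1569430 and 637323 over the 15 libraries. No other gene of the list exceeded 65376. Endothelial and epithelial markers were low in 3T3-L1, where Cdh5, Kdr, Cdh1, Krt18 and Krt8 did not exceed 5.14 normalized counts in any library. Pecam1 reached 12.8 there, and the leukocyte markers Cd68 and Csf1r reached 69.2 and 25.5. In DFAT, PTPRC, CDH5 and MYOD1 did not exceed 2.01, KDR and CDH1 were listed at 0 throughout, and PECAM1 reached 236. The leukocyte marker CD68 ranged from 47.9 to 95.3, while CSF1R reached 7.03, EPCAM 7.13 and KRT18 15.4. The muscle gene DES was called higher with the combination in DFAT (log2 1.81, limma adjusted p = 0.00463) and reached 155. Bulk libraries cannot tell fewer cells of a type from less RNA per cell, and a larger share of dividing cells cannot be told apart from more transcript in each. The part of these markers in the results below was not tested.

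**Figure D1:**
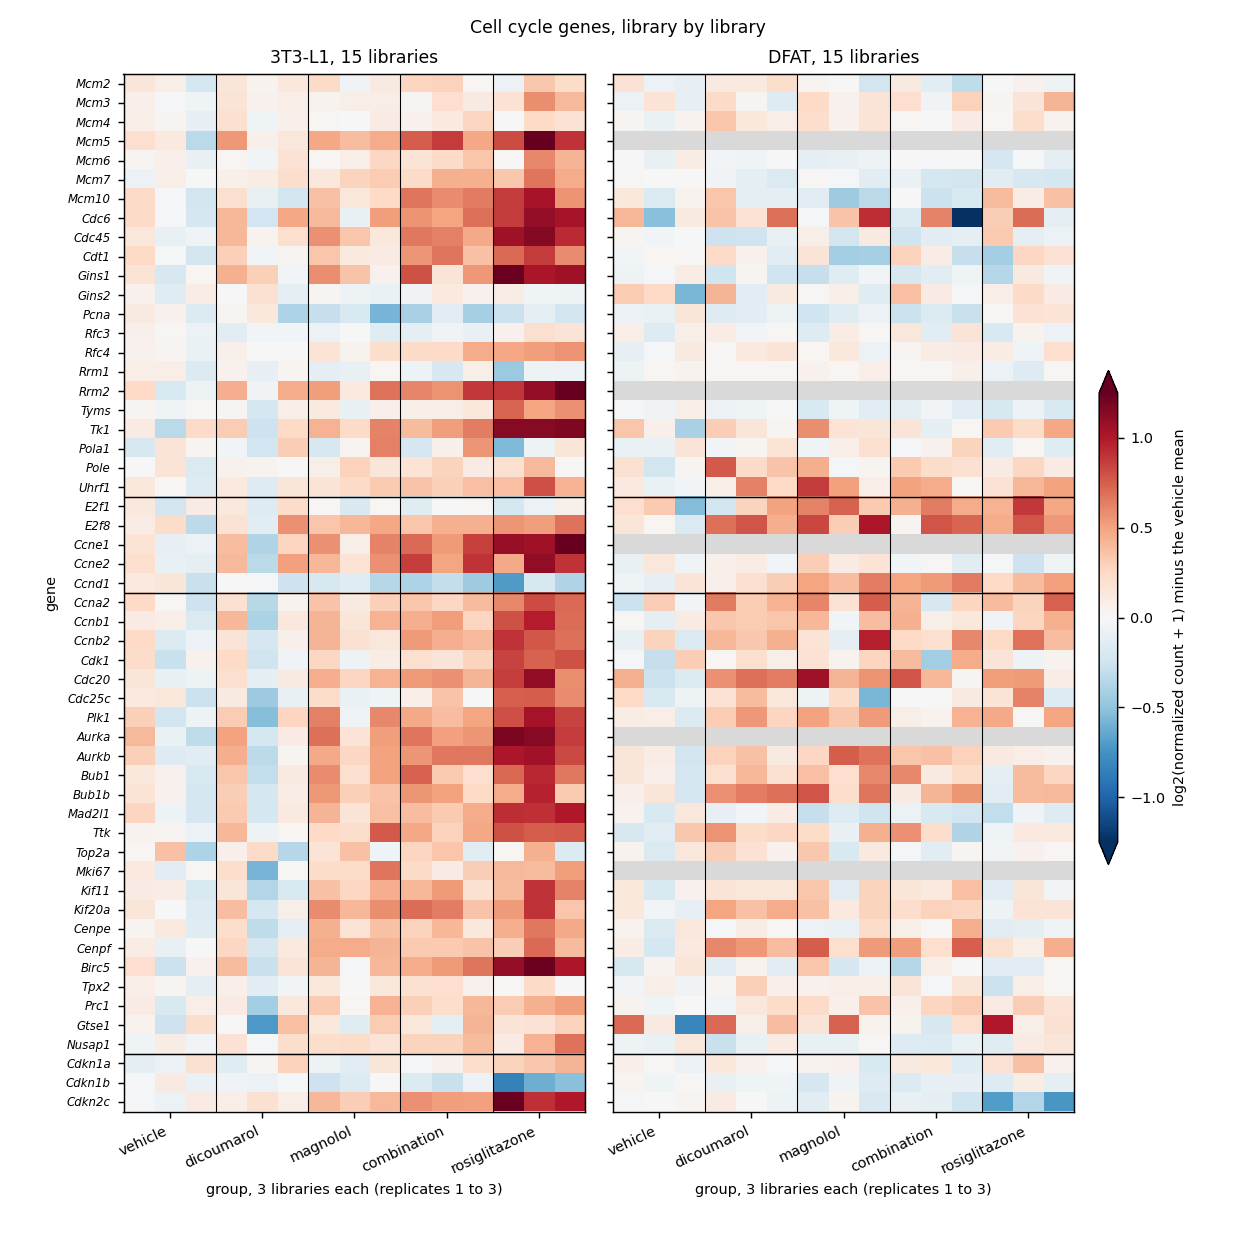
Each row is a gene and each column a library. Colour gives log2(normalized count + 1) minus the vehicle mean of that gene and system, values past either end of the scale take its end colour, and grey rows had no pig gene of that name. Most rows redden from left to right in 3T3-L1, where 40 of 54 genes were called higher with rosiglitazone, against 20.3% of all genes tested. In DFAT 2 of 49 were called with rosiglitazone, against 10.8% of all genes tested. No difference between the systems was tested.

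In 3T3-L1 cells rosiglitazone came with higher expression of most replication, cyclin E, cyclin B and spindle genes, and with lower cyclin D1 and p27. Of the 54 genes, 42 were called, 40 higher and 2 lower (limma, Benjamini-Hochberg adjusted p under 0.05 over all 15723 genes). This contrast was broad: 40.1% of all genes tested were called, 20.3% higher and 19.9% lower. By role, 14 of 22 replication genes, 3 of 5 G1/S regulators, 21 of 24 mitosis genes and 2 of 3 inhibitors rose. The median log2 fold change was 0.51 for replication, 0.59 for G1/S and 0.70 for mitosis genes, against −0.0015 for all genes tested. Log2 fold changes here are on the log2(normalized count + 1) scale. Libraries of the vehicle and rosiglitazone groups did not overlap for any called gene except Mcm6 and Ccnd1. These genes had already been called with 3 libraries a group, so the lack of overlap is no separate support. Its share over all genes was not counted. The share of normalized counts from mitochondrial genes was 6.35%, 5.22% and 7.00% in the vehicle libraries and 14.3%, 7.66% and 11.6% in the rosiglitazone libraries, and its part in these results was not tested.

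**Figure D2:**
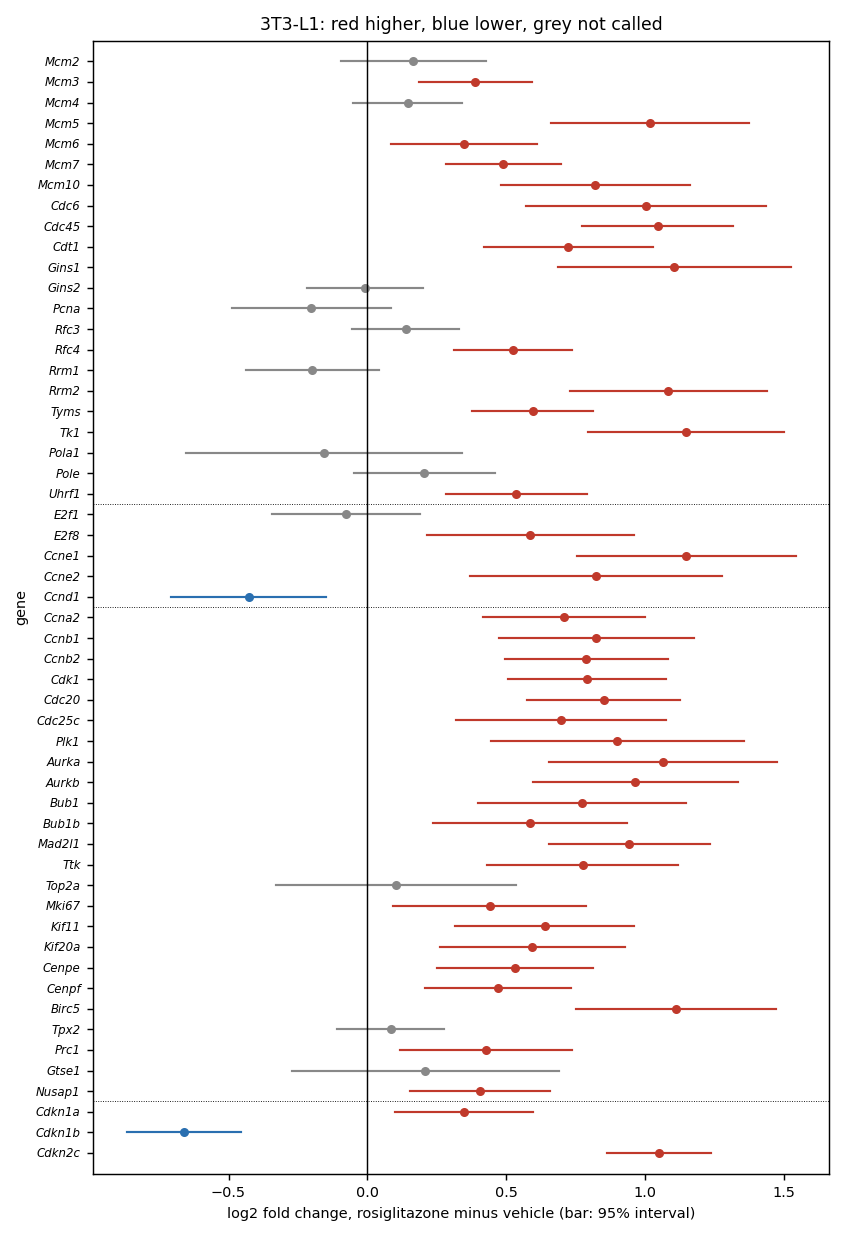
Points are log2 fold changes of rosiglitazone against vehicle in 3T3-L1 (3 libraries each) and bars their 95% intervals from limma. Dotted lines part replication, G1/S, mitosis and inhibitor genes from top to bottom. Of the 54 genes 40 are red and 2, Ccnd1 and Cdkn1b, are blue, where 20.3% of all genes tested were called higher and 19.9% lower.

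Among the genes that start replication, 5 factors that load or activate the helicase rose by a log2 of 0.72 or more. Cdc45, which joins the MCM ring to form the active helicase, was at 355, 302 and 314 normalized counts with vehicle and 673, 716 and 617 with rosiglitazone. All rosiglitazone libraries lay above all vehicle libraries, and the fold was 2.06 (log2 1.04 ± 0.13 SE, adjusted p = 1.34e-05). Gins1, a subunit of the GINS complex that binds Cdc45, rose by a log2 of 1.11 and Cdc6, which loads the MCM ring, by 1.00. The loading factor Cdt1 rose by 0.72 and Mcm10, which helps to activate the ring, by 0.82. The 6 subunits of the MCM2-7 ring, which unwinds DNA as a hexamer, did not change alike. Mcm5 stood at 585, 551 and 400 normalized counts with vehicle and at 890, 1274 and 947 with rosiglitazone, a log2 fold change of 1.02 (95% interval 0.66 to 1.37). Mcm7 rose by 0.49, Mcm3 by 0.39 and Mcm6 by 0.35, the last with overlapping groups. Mcm2, at 1189, 1126 and 917 with vehicle and 1021, 1353 and 1256 with rosiglitazone (log2 0.17, interval −0.10 to 0.43) and Mcm4 (0.14, interval −0.05 to 0.34) were not called, and their intervals end below that of Mcm5. In GINS, Gins2 was not called either (−0.01, interval −0.22 to 0.20). The table places Cdc45 at 18599197 to 18630737 of chromosome 16 (minus strand) and Mcm5 at 75836197 to 75855067 of chromosome 8 (plus strand), in a build that could not be settled.

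Of the genes of the replication fork and of nucleotide supply some rose and others were not called. Rrm2, the small subunit of ribonucleotide reductase, which is known to be limiting in S phase, was at 804, 593 and 645 with vehicle and at 1257, 1443 and 1617 with rosiglitazone. It rose 2.12-fold (log2 1.08 ± 0.17 SE, adjusted p = 0.000109), whereas Rrm1, the large subunit, was not called (−0.20, interval −0.44 to 0.04). Tk1, thymidine kinase, rose from 245, 181 and 271 to 504, 506 and 514 normalized counts (log2 1.15 ± 0.17 SE, adjusted p = 6.63e-05). Tyms, thymidylate synthase, rose by 0.60 and Uhrf1, which recruits the DNA methyltransferase behind the fork, by 0.54. Rfc4, a subunit of the clamp loader, rose by 0.52, but Rfc3 of the same complex did not pass the test (0.14). The sliding clamp Pcna (−0.20), the polymerase subunits Pola1 (−0.16) and Pole (0.20) did not pass it either. Pcna shares its sequence with the processed pseudogene Pcna-ps2, whose mean of 2029 normalized counts beside 2235 for Pcna leaves the gene's value uncertain. Tyms-ps, at a mean of 11.1, had few counts beside the 463 of Tyms.

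At the G1 to S boundary the cyclins moved in opposite directions. Ccne1 (cyclin E1) stood at 257, 213 and 217 normalized counts with vehicle and at 486, 476 and 563 with rosiglitazone. The groups did not overlap, and the fold was 2.22 (log2 1.15 ± 0.19 SE, adjusted p = 0.000165). Ccne2 rose by 0.82 and E2f8, a repressor among the E2F factors, by 0.59. E2f1, an activating E2F, was at 730, 565 and 711 against 571, 630 and 694 and was not called (−0.08, interval −0.34 to 0.19). Ccnd1 (cyclin D1), which couples growth signals to the cycle, fell by 0.43 on the log2 scale (adjusted p = 0.0169), from 7557, 7708 and 5713 to 4254, 6026 and 5341, and vehicle replicate 3 lay below rosiglitazone replicate 2. Ccnd1 was no longer called when vehicle replicate 1 (adjusted p = 0.0673) or 2 (0.0773) was left out, nor without rosiglitazone replicate 1 (0.0966), and with only the compared groups fitted (0.0711). Ccne2 overlaps Ints8, and Ccnd1 overlaps LTO1, on the opposite strand, and the sources used here do not say whether counting used strand. The same doubt holds for Gins2, which shares 2758 bases with Gse1, at means of 954 and 1436 normalized counts. It holds too for Tk1 with Gm20708, Rfc4 with Eif4a2, Cdc45 with Ufd1 and Mcm7 with Cops6 and Ap4m1. Further such pairs are Ccna2 with Exosc9, Cdc20 with Elovl1, Kif20a with Cdc23, Prc1 with Rccd1 and Nusap1 with Oip5.

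Of the 3 CDK inhibitors 2 rose and 1 fell. Cdkn2c, which encodes p18 and blocks CDK4 and CDK6, had the lowest adjusted p of all 54 genes. It was at 1126, 1090 and 1236 normalized counts with vehicle and at 2701, 2169 and 2299 with rosiglitazone (log2 1.05 ± 0.09 SE, adjusted p = 4.88e-07). Cdkn1b, which encodes p27 and blocks cyclin E and CDK2, fell by 0.66 on the log2 scale (SE 0.10, adjusted p = 7.19e-05), from 3347, 3671 and 3207 to 1896, 2227 and 2362. Every rosiglitazone library was below every vehicle library. Cdkn1a, which encodes the p53-induced inhibitor p21, rose by 0.35 (adjusted p = 0.0262), from 4252, 4375 and 5247 to 5602, 5832 and 6173. Cdkn1a was no longer called when vehicle replicate 1 (adjusted p = 0.0961) or 2 (0.0852) was left out, nor without rosiglitazone replicate 3 (0.0827), and with only the compared groups fitted (0.0501).

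Of the 24 mitosis genes 21 rose, and the log2 fold changes of all 24 ran from 0.08 to 1.11. Cdk1 was at 843, 595 and 747 normalized counts with vehicle and at 1292, 1199 and 1255 with rosiglitazone (log2 0.79 ± 0.13 SE, adjusted p = 0.000256). Its partners rose by similar sizes: Ccna2 by 0.71, Ccnb1 by 0.82 and Ccnb2 by 0.79. Ccnb1 and Ccnb2 have processed copies, Ccnb1-ps and Ccnb2-ps, at means of 138 and 49.3 normalized counts beside 528 and 231. Cdc25c, the phosphatase that activates CDK1, rose by 0.70 and Plk1, a kinase of mitotic entry, by 0.90. Of the spindle checkpoint genes, Mad2l1 went from 712, 567 and 511 to 1122, 1111 and 1181 (log2 0.94 ± 0.14 SE, adjusted p = 6.2e-05). Bub1 and Ttk each rose by 0.77, and Bub1b by 0.59. Cdc20, the activator of the anaphase-promoting complex, rose by 0.85 (adjusted p = 9.56e-05). Birc5 (survivin) rose by 1.11 and Aurkb by 0.96, both parts of the chromosomal passenger complex, and Aurka, the kinase of the spindle poles, rose by 1.06. The motors Kif11, Kif20a and Cenpe rose by 0.64, 0.59 and 0.53, and the kinetochore gene Cenpf by 0.47. The smallest rises were those of the spindle genes Nusap1 (0.40) and Prc1 (0.43) and of the proliferation marker Mki67 (0.44). Mki67 ranged over 1336 to 1599 with vehicle and 1936 to 2113 with rosiglitazone.

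Not called were Top2a (topoisomerase II alpha, log2 0.10, interval −0.33 to 0.54), Tpx2 (a spindle assembly factor, 0.08, interval −0.11 to 0.28) and Gtse1 (0.21, interval −0.27 to 0.69). Top2a was spread over 2819 to 4755 normalized counts within the vehicle group alone. The Mki67, Prc1, Nusap1, Bub1b, E2f8 and Mcm6 calls had adjusted p between 0.01 and 0.0423, and each was lost without at least 1 library. Without vehicle replicate 2 the adjusted p was 0.142 for Mki67, 0.123 for Prc1 and 0.0507 for Mcm6. Without vehicle replicate 3 it was 0.0752 for E2f8, 0.0741 for Mki67 and 0.105 for Mcm6. Without rosiglitazone replicate 2 it was 0.051 for Bub1b, 0.0599 for Mki67, 0.0556 for Prc1 and 0.156 for Mcm6. Without rosiglitazone replicate 3 it was 0.0781 for Nusap1, 0.11 for Mki67, 0.0865 for Prc1 and 0.1 for Mcm6. Mki67 was also lost without rosiglitazone replicate 1 (0.076), and Mcm6 without vehicle replicate 1 (0.0594). With only the compared groups fitted, Nusap1 (0.068) and Mcm6 (0.108) were lost. Without the variance trend Mki67 (0.0717) and Mcm6 (0.0561) were lost, and Mki67 also without the filter (0.0553). Apart from these 6 genes, Ccnd1 and Cdkn1a, 34 calls were kept in each of 12 alternative settings.

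The plant compounds were compared with vehicle to see whether the same genes moved when each was given alone and when they were joined. With the combination 11 of the 54 genes were called in 3T3-L1, all of them higher, against 5.22% of all genes called and 3.86% called higher. They were Mcm5, Mcm7, Mcm10, Cdc45, Cdt1 and Rrm2 of replication, Ccne1, the mitosis genes Cdc20, Aurkb and Kif20a, and Cdkn2c. Cdc45 was at 511, 501 and 450 normalized counts (log2 0.59 ± 0.13 SE, adjusted p = 0.0128) and Mcm5 at 854, 926 and 705 (0.70 ± 0.17 SE, adjusted p = 0.0223). Rrm2 rose by 0.69 to 1033, 999 and 1246, and Ccne1 by 0.70 to 373, 330 and 413. Cdkn2c again had the lowest adjusted p of these genes, at 1708, 1656 and 1640 (0.54 ± 0.09 SE, adjusted p = 0.00224). For all 5 of these genes the combination libraries lay above the vehicle libraries, which is no separate support for genes already called. The median over the 54 genes was 0.34 against −0.0089 for all genes.

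The replicate numbers paired the 3T3-L1 libraries, so a fit with the number as a block applies too. It called 22 of the 54 genes with the combination, 20 higher and 2 lower, against 13.5% of all genes, and kept all 11. Added were Cdc6, Gins1, Rfc4, Tk1, Ccne2, Ccnb2, Aurka, Mad2l1 and Birc5, higher, and Pcna (−0.32) and Ccnd1 (−0.38), lower. Ccnd1 was at 5317, 5627 and 5082 with the combination, below every vehicle library. Without the block the count was fragile: leaving out vehicle replicate 2 or combination replicate 1 gave 2, vehicle replicate 3 gave 3, combination replicate 2 gave 5 and combination replicate 3 gave 4. The Cdkn2c call was kept in each of the 12 settings (highest adjusted p 0.019).

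Magnolol alone gave 0 called of 54 genes (limma), while 1.23% of all genes were called. At an unadjusted p under 0.05 it gave 21 of 54, against 1579 of all 15723 genes. All 24 mitosis genes were above 0, with a median of 0.33, and replication genes had a median of 0.16. Of all 15723 genes tested 7782 were above 0, with a median of −0.0023. The 24 genes share the same vehicle libraries, so they are not 24 independent observations. With the replicate block 4 genes were called against 4.96% of all genes: Kif20a (0.53), Cenpf (0.45) and Cdkn2c (0.37) higher and Pcna (−0.35) lower. Kif20a, a motor of cytokinesis, was at 945, 837 and 938 with magnolol and at 695, 630 and 562 with vehicle, without overlap. Dicoumarol alone gave 0 called of 54 (limma), and 0% of all genes were called. At an unadjusted p under 0.05 it gave 0 of 54, against 393 of all 15723 genes. The block also called 0 of the 54. The medians were 0.06 for replication and 0.03 for mitosis genes, and no gene of the 54 exceeded 0.29 in log2. Dicoumarol replicate 2 stood apart: the median mitosis gene lay 0.26 below the vehicle mean there, and 0.23 and 0.08 above it in the other libraries of the group.

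**Figure D3:**
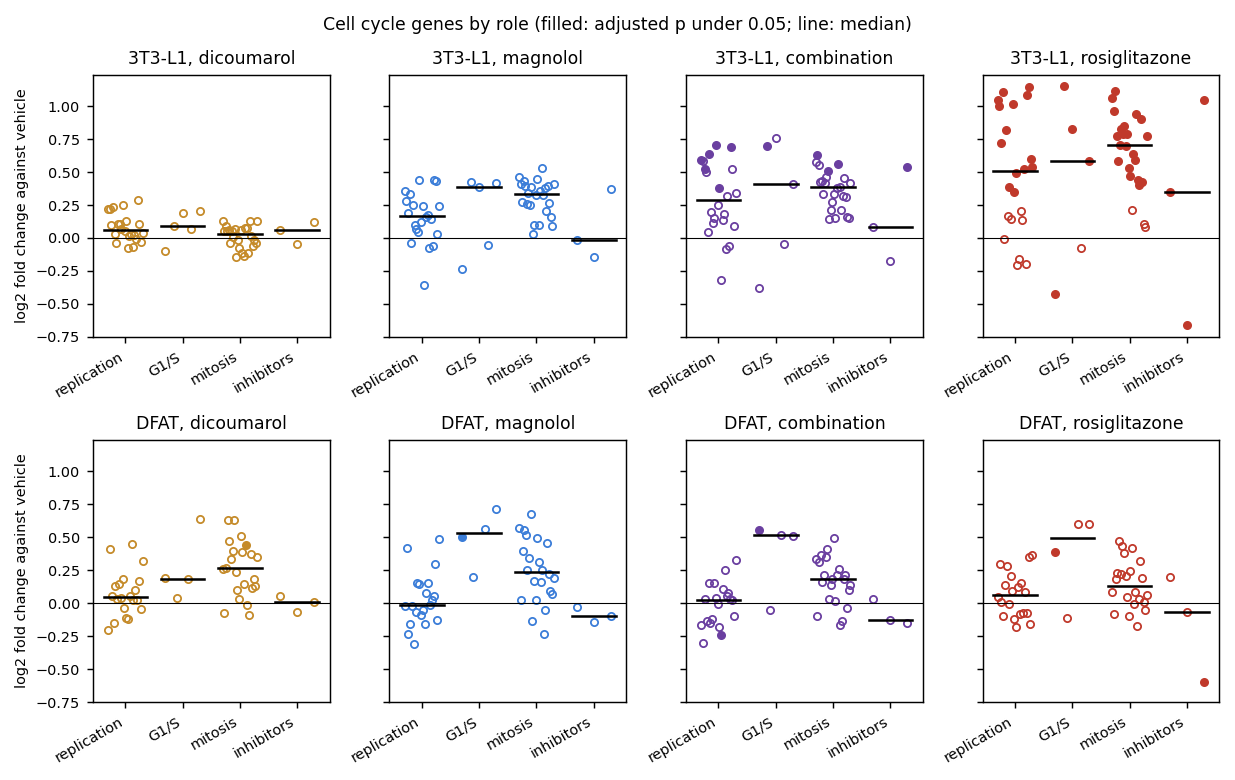
Each point is a gene's log2 fold change against vehicle, from limma with 3 libraries per group, split by role. Filled points passed adjusted p under 0.05 and lines are medians. In 3T3-L1 the mitosis median is 0.03 under dicoumarol, 0.33 under magnolol, 0.38 for both joined and 0.70 under rosiglitazone, and in DFAT it is 0.26, 0.24, 0.18 and 0.13.

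Adding 1 compound to the other was tested directly. In 3T3-L1 the combination against dicoumarol alone gave 0 called of 54 (limma), with 0.0254% of all genes called. At an unadjusted p under 0.05 it gave 26 of 54, against 1273 of all 15723 genes. With the replicate block 7 were called, all higher, against 3.62% of all genes: Mcm10 (0.68), Ccne1 (0.60), Aurkb (0.58), Ccnb2 (0.46), Cdc20 (0.44), Cdt1 (0.42) and Cdkn2c (0.42). Mcm10 was at 140, 113 and 103 normalized counts with dicoumarol and at 194, 183 and 191 with the combination. The combination against magnolol alone gave 0 called of 54 (limma, with and without the block), with 0% of all genes called without it. At an unadjusted p under 0.05 it gave 2 of 54, against 336 of all 15723 genes. The interaction term asks whether the joint log2 effect departs from the sum of both. It gave 0 called of 54 (limma, with and without the block), with 0% of all genes called without it. At an unadjusted p under 0.05 the interaction gave 0 of 54, against 78 of all 15723 genes. Comparisons with vehicle share the vehicle libraries, so their values stand side by side and were not correlated.

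Rosiglitazone was also compared with the combination in 3T3-L1. Of the 54 genes 10 were called, a share close to the 18.3% of all genes. By direction 9 were higher and 1 lower, where 9.53% of all genes were called higher and 8.78% lower. That split was not tested. Cdk1 was at 826, 808 and 875 normalized counts with the combination and at 1292, 1199 and 1255 with rosiglitazone (log2 0.58 ± 0.13 SE, adjusted p = 0.00957). Tyms rose by 0.51 from 435, 435 and 453 to 685, 581 and 616 (adjusted p = 0.00483). The groups did not overlap for either gene. Mad2l1 (0.55), Birc5 (0.56), Cdc25c (0.55), Tk1 (0.63), Gins1 (0.61), Cdc45 (0.46) and Cdkn2c (0.51) were also higher. Of 12 alternative settings the Cdc25c call was kept in 4, Birc5 in 5, Gins1 in 6, Cdc45 in 8 and Tk1 in 10. The Mad2l1 and Cdkn2c calls were kept in all 12. Cdkn1b fell by 0.49, from 3033, 2807 and 3238 to 1896, 2227 and 2362 (adjusted p = 0.00432). The replicate block called 20 of the 54, 19 higher and 1 lower, against 33.3% of all genes, and added Rrm2, Ccne1, Ccna2, Ccnb1, Ccnb2, Cdc20, Aurka, Mcm3, Rfc3 and Cdkn1a. The count was 6 without combination replicate 3 or rosiglitazone replicate 1.

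**Figure D4:**
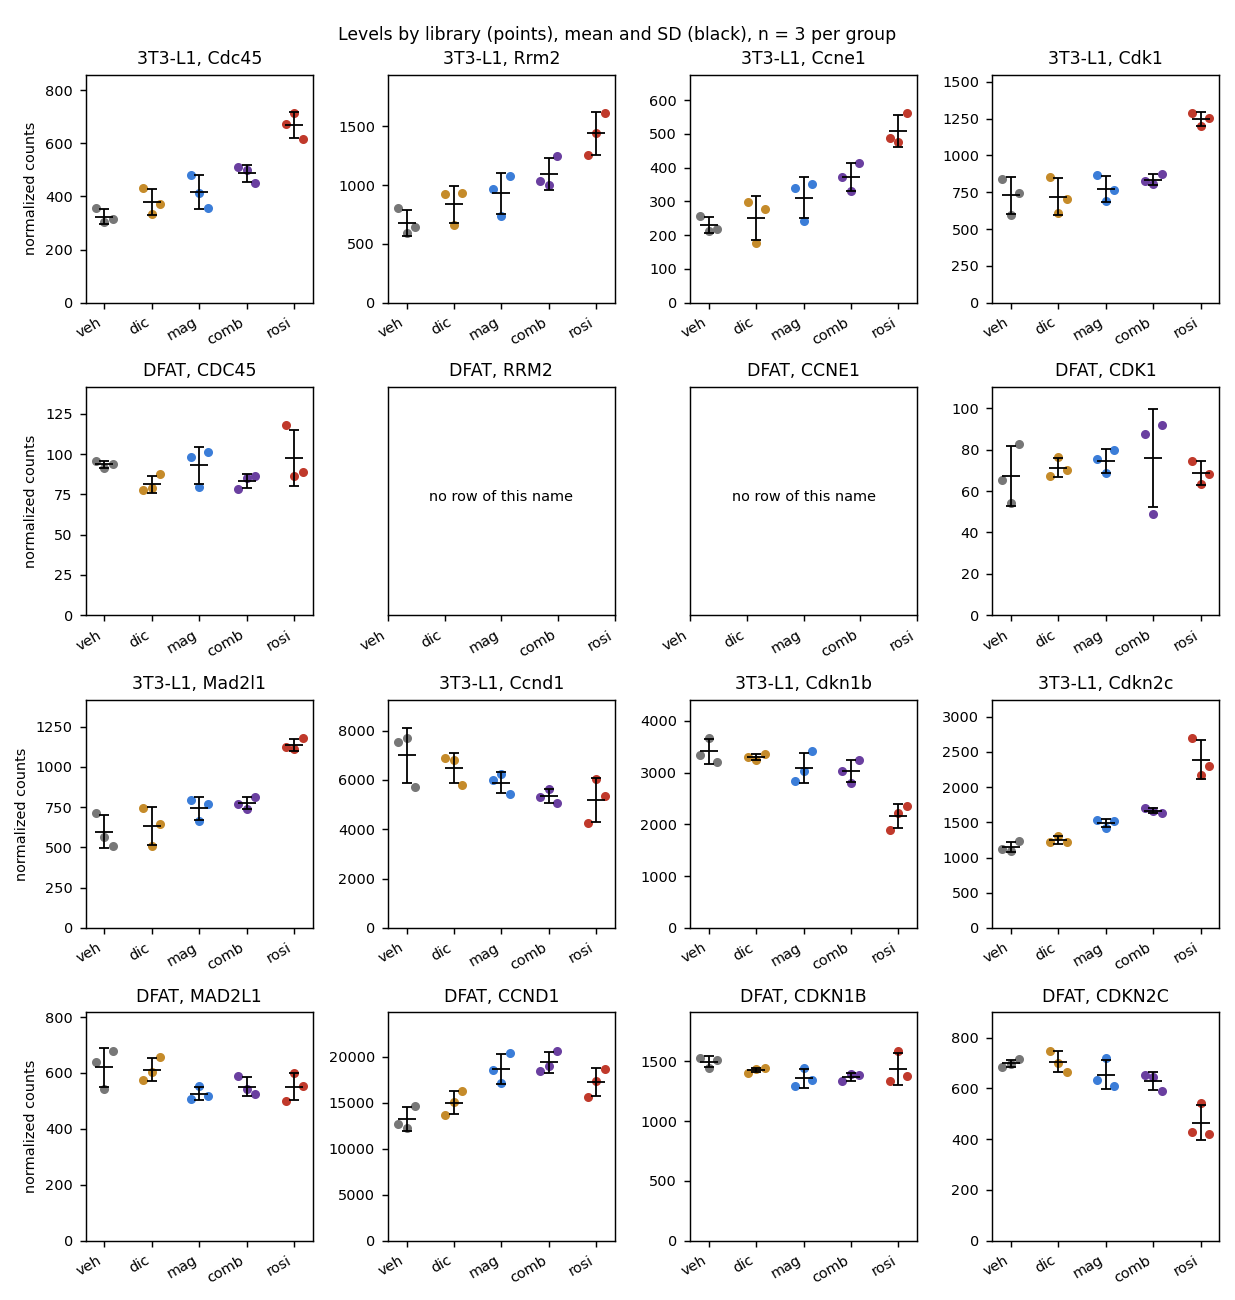
Points are normalized counts of single libraries and black bars the mean and SD of 3, for 8 genes in 3T3-L1 (upper row of each pair) and DFAT (lower row). The axes start at 0, and no pig row was named RRM2 or CCNE1. In 3T3-L1 Cdk1 lies between 595 and 875 in the 12 libraries without rosiglitazone and between 1199 and 1292 with it, and in DFAT CDKN2C lies between 420 and 543 with rosiglitazone and between 587 and 749 elsewhere.

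In DFAT cells the genes called in a comparison with vehicle were CCND1, CDKN2C, PCNA and KIF20A. Their counts are given below by comparison, each beside the share of all genes. CCND1 (cyclin D1) was at 12624, 12251 and 14651 normalized counts with vehicle and at 13702, 15072 and 16251 with dicoumarol. It stood at 18490, 17109 and 20415 with magnolol, 18439, 18978 and 20660 with the combination and 15649, 17301 and 18692 with rosiglitazone. The last 3 groups lay above every vehicle library. The fibroblast sum given above, mostly COL1A1 and COL3A1, was also higher with magnolol and the combination than with vehicle, and lower with rosiglitazone. The genes of that list did not move alike. Of 6 tested, 2 were called higher and 3 lower with magnolol, and likewise with the combination. With rosiglitazone 0 were called higher and 3 lower. The part of these genes in the CCND1 result was not tested. The mitochondrial share of normalized counts was 10.2%, 9.58% and 9.69% in the DFAT vehicle libraries. It was 11.7%, 11.6% and 10.7% with dicoumarol and 12.2%, 10.5% and 12.9% with magnolol. With the combination it was 12.6%, 12.2% and 15.1%, and with rosiglitazone 9.77%, 6.85% and 10.8%. The part of this share in the DFAT results was not tested. CCND1 rose by a log2 of 0.50 with magnolol (SE 0.09, adjusted p = 0.00208), 0.56 with the combination (adjusted p = 0.000386) and 0.39 with rosiglitazone (adjusted p = 0.00745). It was the only 1 of 49 genes called with magnolol, where 4.22% of all pig genes were called.

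CDKN2C, the p18 gene, fell with rosiglitazone in DFAT by 0.60 on the log2 scale (SE 0.10, adjusted p = 0.000401). It was at 686, 694 and 714 with vehicle and at 429, 543 and 420 with rosiglitazone, without overlap. With dicoumarol it was at 749, 698 and 666, with magnolol at 631, 718 and 610, and with the combination at 653, 645 and 587. CCND1 and CDKN2C were the 2 of 49 genes called with rosiglitazone, against 10.8% of all genes. The combination called 2 of 49, CCND1 and PCNA, against 10.2% of all genes. PCNA fell by 0.24, from 3170, 3147 and 3689 to 2760, 2953 and 2735 (adjusted p = 0.0389). It was no longer called when vehicle replicate 1 (0.0501) or 3 (0.176) or combination replicate 1 (0.115) or 3 (0.121) was left out, without the filter (0.0717), without the variance trend (0.0742) and with only the compared groups fitted (0.079). Dicoumarol called 1 of 49, KIF20A, against 1.94% of all genes. KIF20A rose by 0.44 (adjusted p = 0.0417), from 203, 181 and 172 to 261, 239 and 255, a call lost when any 1 of the 6 libraries was left out (adjusted p 0.0517 to 0.178), without the filter (0.0551) and with quantile normalization (0.0914).

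The other replication and mitosis genes were not called against vehicle in DFAT. At an unadjusted p under 0.05 (limma) dicoumarol gave 10 of 49 genes, magnolol 17, the combination 6 and rosiglitazone 8. Of all 14819 genes 1504, 2476, 3642 and 3225 passed that threshold in the same order. Of 22 mitosis genes 19, 19, 18 and 17 were above 0, against 7428, 7158, 7087 and 7199 of all genes. These genes share the same vehicle libraries, so they are not independent observations. Over the 15 DFAT libraries CDK1 ranged from 49.0 to 91.8 normalized counts, CCNA2 from 52.0 to 107, CCNB1 from 93.4 to 137, PLK1 from 86.6 to 143 and E2F1 from 45.8 to 124. MCM2 ranged from 288 to 419 and TOP2A from 255 to 369. CDKN1B ranged from 1292 to 1590 and CDKN1A from 36569 to 53732. CDK1 overlaps RHOBTB1, at a mean of 1380, on the opposite strand, as do TYMS and ENOSF1, CCNA2 and EXOSC9, and KIF20A and BRD8, so their counts are uncertain where strand was not used. Medians of the mitosis genes against vehicle were 0.26 for dicoumarol, 0.24 for magnolol, 0.18 for the combination and 0.13 for rosiglitazone. Those of the replication genes were 0.05, −0.02, 0.03 and 0.06. The 95% interval of CDK1 with rosiglitazone was −0.41 to 0.50 and that of CDC45 −0.27 to 0.37. No difference between the systems was tested.

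Between treated DFAT groups the calls were also few. CCND1 was the only 1 of 49 genes called for the combination against dicoumarol (0.37, adjusted p = 0.0341, against 2.35% of all genes). That call was lost without dicoumarol replicate 1 (0.218) or 2 (0.105), without combination replicate 1 (0.0587), 2 (0.069) or 3 (0.173), without the filter (0.11) and without the variance trend (0.107). Against magnolol the combination called 0 of 49 (limma, with and without the block), and 0.621% of all genes without it. At an unadjusted p under 0.05 it gave 2 of 49, against 989 of all 14819 genes. Rosiglitazone against the combination called 3 of 49, against 17% of all genes: PCNA (0.36, adjusted p = 0.00171) and MCM10 (0.44, adjusted p = 0.0306) higher and CDKN2C (−0.45, adjusted p = 0.00394) lower. PCNA was at 2760, 2953 and 2735 with the combination and at 3364, 3765 and 3753 with rosiglitazone, without overlap. MCM10 shares 8110 bases of the same strand with OPTN, whose mean of 11904 normalized counts beside 538 leaves its value uncertain, and its call was lost without combination replicate 2 (0.105), combination replicate 3 (0.0839), rosiglitazone replicate 1 (0.0903) or rosiglitazone replicate 3 (0.093), without the filter (0.0783) and without the variance trend (0.0602). The replicate numbers paired the combination and rosiglitazone libraries, and the block called 5 of 49 against 24.9% of all genes, adding CCND1 (−0.17) and CENPE (−0.28) as lower. The interaction term called 0 of 49 (limma, with and without the block), and 0.081% of all genes without it. At an unadjusted p under 0.05 it gave 8 of 49, against 582 of all 14819 genes.

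Other genes of the pathway, from lists written with earlier results of these data known, are given beside the members. In 3T3-L1 with rosiglitazone 21 of 32 other replication genes rose and 0 fell, where 20.3% of all genes were called higher and 19.9% lower. The fork protection gene Timeless rose by 1.17 (adjusted p = 5.14e-07). Of 46 other mitosis genes 32 rose, among them Cdca3 (1.27) and Ube2c (1.32), a ubiquitin-conjugating enzyme of the anaphase-promoting complex, and 1 fell, Cdc25b (−0.30). Of 27 other G1 and pocket protein genes 9 rose and 4 fell. The growth regulator Myc rose by 1.04 and the CDK2 phosphatase Cdc25a by 0.86, while the inhibitor Cdkn2b (p15) fell by 1.06 and the kinase Cdk6 by 0.75. Of 19 targets of p53, a factor that restrains the cycle after damage, 8 fell and 1 rose (Bbc3, 0.45). Plk2 fell by 1.77 (adjusted p = 6.42e-07) and the DNA repair gene Xpc by 0.48. List medians were 0.44, 0.55, 0.19 and −0.28, against −0.0015 for all genes.

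With the combination in 3T3-L1 the same lists gave 2 of 32, 2 of 46 and 2 of 27 higher, with 1 of 27 and 1 of 19 lower, where 5.22% of all genes were called and 3.86% called higher. Timeless rose by 0.71 (adjusted p = 0.000931), Brca1 by 0.58, Cdca3 by 0.74, Ckap2l by 0.52, Myc by 0.53 and Cdc25a by 0.38. Cdkn2b fell by 0.48 and Plk2 by 0.85. With the replicate block the counts were 8 of 32, 12 of 46, 6 of 27 and 2 of 19, against 13.5% of all genes. Magnolol and dicoumarol gave 0 in all 4 lists (limma), where 1.23% and 0% of all genes were called. At an unadjusted p under 0.05 magnolol gave 6, 11, 5 and 1 genes, against 1579 of all 15723. Dicoumarol gave 1, 0, 1 and 1 at that threshold, against 393 of all 15723. With the block magnolol gave 2, 1, 2 and 1, against 4.96% of all genes, and dicoumarol 0. In DFAT 10.2% of all genes were called with the combination, and the counts in these lists lay near or below that share. Higher were 5 of 43 other mitosis genes, among them ANLN (0.77), a scaffold of the cleavage furrow, and MYBL2 (0.61), which switches on mitotic genes. Of 30 other replication genes 2 were higher, RFC1 (0.23) and CLSPN (0.30), and of 26 G1 genes 2 were lower, CDKN2B (−0.40) and MYC (−0.37). Of 17 p53 targets 1 was lower, PLK2 (−0.42). With magnolol, where 4.22% of all genes were called, 3 of 43 other mitosis genes were higher, which included ANLN (0.62) and CENPA (1.05). With dicoumarol, where 1.94% were called, NCAPG (0.73), a condensin subunit, was higher and CDKN2B (−0.35) and PLK2 (−0.39) were lower. With rosiglitazone, where 10.8% were called, MYBL2 (0.89) and CDCA8 (1.10) rose, as did RFC1 (0.28). The E2F partner TFDP2 fell by 0.53 and RBL2, a pocket protein, by 0.37. Of 17 p53 targets 3 rose, among them PLK3 (0.41) and TP53INP1 (0.17), and SESN1 fell by 0.36.

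Several of these calls rested on single libraries. In 3T3-L1 with rosiglitazone, Bbc3 was lost without vehicle replicate 1 (adjusted p = 0.0769) or 2 (0.126) or rosiglitazone replicate 1 (0.124) or 3 (0.0958), and Cdc25b without vehicle replicate 1 (0.143) or rosiglitazone replicate 1 (0.128) or 3 (0.118). With the combination, Brca1 was lost without vehicle replicate 3 (0.109) or combination replicate 1 (0.163). Without combination replicate 1 the calls of Cdc25a (0.137), Cdkn2b (0.235), Ckap2l (0.157) and Myc (0.132) were lost as well, each of which was also lost without at least 3 other libraries. In DFAT with the combination, RFC1 (0.201), CLSPN (0.223) and MYC (0.158) were lost without combination replicate 3, and each without at least 3 other libraries. With magnolol CENPA was lost without magnolol replicate 1 (0.168) or 3 (0.16) or any vehicle library (0.0697 to 0.119). With dicoumarol CDKN2B was lost when any 1 of the 6 libraries was left out (0.053 to 0.166), and NCAPG in 5 of those 6 cases (0.0519 to 0.102). With rosiglitazone CDCA8 was lost without vehicle replicate 1 (0.0738) or 3 (0.0722) or rosiglitazone replicate 1 (0.0744), and RFC1 without vehicle replicate 2 (0.0777). PLK3 was lost without vehicle replicate 3 (0.12) or rosiglitazone replicate 1 (0.122), and TP53INP1 without any vehicle library (0.0508 to 0.163) or rosiglitazone replicate 1 (0.0833) or 2 (0.0836).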

How the data were processed

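Poly(A) RNA sequencing was made from 3T3-L1 and DFAT cells, 15 libraries each. The submitters' processing notes name bcl2fastq 2.19.1.403, STAR, GRCm38 (for the pig samples too) and DESeq2. The deposited values are a signal per gene, gene counts that the authors divided by DESeq2 size factors. Dividing low values by the worth of 1 read gave whole numbers (within 0.02, up to 20 reads) for 81.0 to 82.3% of values in 3T3-L1 and 89.6 to 90.8% in DFAT, short of nearly all, so no count test was run. Each table was fitted alone, as log2(value + 1), by limma (version 3.58.1, under R 4.3.3), for genes with a mean of at least 10, with all 5 groups in 1 model and a variance trend. Tests were two-sided with Benjamini-Hochberg adjustment over all genes tested, and a call is an adjusted p under 0.05. Of 8 comparisons per system, 4 are against vehicle.

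The 54 members and the other lists were chosen with earlier results of these data known. Values are named for a panel of members, for up to 4 called members per comparison and direction with the smallest adjusted p, and for up to 2 such genes per other list. Other members were named after their values were seen. A gene of the other lists that this rule names is not reported here. Samples were grouped by the labels.

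Replicate numbers come from the labels. Deviations from group means correlated above 0.1 for all 30 same-numbered pairs in 3T3-L1 (lowest 0.106, median 0.300, against −0.142 for 60 other pairs). In DFAT this held for each pair only among magnolol, combination and rosiglitazone (lowest 0.105). Alternatives were a pseudocount of 4, no filter, only the compared groups, the replicate block, no variance trend, quantile normalization and leaving out each library. Their use on the other lists was chosen after seeing the data. Gene positions are as deposited. Their build is not settled, since 2.18% of 24070 matched mouse genes start where GENCODE M21 (GRCm38) places them.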

Additional observations from a re-analysis of the deposited data

Results flagged for a closer look

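For some members every library of the first group lay above the second group in 3T3-L1 and below it in DFAT, or the reverse, under the same contrast. How often this occurs over all genes was not counted. None of these differences between the systems was tested, because the tables were normalized separately, and many of the values did not pass the test within their own system. Each value is a log2 fold change, in 3T3-L1 and then in DFAT. Cdkn2c passed in both systems for rosiglitazone against vehicle (1.05 and −0.60) and rosiglitazone against the combination (0.51 and −0.45). In the contrasts that follow here, only the 3T3-L1 value passed: Cdkn2c (0.54 and −0.15), Mcm7 (0.38 and −0.18) and Cdc45 (0.59 and −0.16) for the combination against vehicle, and Mcm7 (0.49 and −0.18) and Tyms (0.60 and −0.15) for rosiglitazone against vehicle. For Ccnd1 only the DFAT value passed, with the combination against vehicle (−0.38 and 0.56) and against dicoumarol (−0.28 and 0.37). Neither value passed for Cdkn2c with the combination against dicoumarol (0.42 and −0.16), nor for Aurkb (0.34 and −0.25) and Cenpe (0.26 and −0.28) with rosiglitazone against the combination. These calls are without the replicate block. The contrasts share libraries, so the entries of a gene are not independent.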

How the results depend on the processing

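Of 73 calls among the members over all comparisons, 46 held in every alternative setting and 0 changed direction. With the replicate block, which is a paired analysis, the number of members called in 3T3-L1 was 4 for magnolol, 22 for the combination, 7 for the combination against dicoumarol and 20 for rosiglitazone against the combination. In DFAT the block gave 3 for dicoumarol, 5 for magnolol, 4 for the combination, 6 for rosiglitazone and 5 for rosiglitazone against the combination. Only the last of these has numbers that pair the libraries, and 24.9% of all genes were called there. For the DFAT comparisons with vehicle the share of all genes called with the block is not given here. Those counts are therefore no result about the members. In comparisons not listed here the block moved no count of member calls by over 1.5 times. The 3T3-L1 combination gave 7 calls with no filter and 3 with no variance trend. In DFAT, dicoumarol gave 0 with no filter, 0 with quantile normalization and 3 with only the compared groups. DFAT magnolol gave 2 with no variance trend, the combination 1 with no filter and 1 with no trend, and the combination against dicoumarol 0 under each of these. Leaving out each library gave 2 to 11 calls for the combination, 37 to 40 for rosiglitazone and 6 to 8 for rosiglitazone against the combination in 3T3-L1, and 0 to 0 elsewhere there. In DFAT it gave 0 to 0 for dicoumarol, 1 to 2 for magnolol, 1 to 3 for the combination, 2 to 3 for rosiglitazone, 0 to 1 for the combination against dicoumarol and 2 to 3 for rosiglitazone against the combination. The DFAT counts moved by over 1.5 times without magnolol replicate 1 or 2 (2 calls), and for the combination without vehicle replicate 1 or 3 or combination replicate 1 or 3 (1 call). In 3T3-L1 with rosiglitazone, 3 uncalled genes changed sign when a library was left out: Gins2 ran from −0.084 to 0.038, Pola1 from −0.31 to 0.043 and Top2a from −0.092 to 0.28. Of 157 calls in the other lists, 82 held in every setting. With 3 libraries a group, the number of libraries limits precision, and where a call was lost the cause was not tested.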
